A study of Arabidopsis thaliana with 8 samples.

Results

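The comparison described here is the difference between 2 heat responses: the change from 22 °C to 37 °C in seedlings labelled til1-1 minus the same change in Col-0, the wild type of Arabidopsis thaliana. It used all 8 arrays of the series, 2 in each of 4 groups, and 22746 probe sets that are not controls. Every group was of 7-day-old seedlings. The groups were Col-0 at 22 °C, Col-0 at 37 °C, til1-1 at 22 °C and til1-1 at 37 °C, and each array held RNA from a pool of about 100 plants harvested right after the treatment. The sources used here do not give how long the heat lasted. Each value is a deposited intensity of an Affymetrix probe set, in arbitrary units, and differences are given on the scale of log2(intensity + 16), on which 1 unit is a 2-fold change for a bright probe set and less than the true change for a dim one. A negative difference means that the heat response was lower in til1-1 than in Col-0.

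A heat shock makes plant cells switch on genes for chaperones, proteins that keep other proteins from clumping or refold them. Heat shock factors bind the promoters of these genes and drive their transcription, while many genes of growth are turned down. The temperature-induced lipocalin TIL (AT5G58070) is a small lipid-binding protein of the plasma membrane whose transcript rises in heat and cold, and Arabidopsis mutants that lack it are known to be sensitive to heat. The til1-1 line is labelled as a mutant of this gene, so TIL is both a member of the comparison and the check of the labels.

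TIL had a weaker rise in til1-1 than in Col-0. In Col-0 its intensity was 3795 and 3132 on the arrays at 22 °C and 21246 and 20289.7 on those at 37 °C. In til1-1 it was 3168 and 3048 at 22 °C and, at 37 °C, 5804 and 5342. The 4 arrays at 22 °C lay close together whatever the label, and the Col-0 arrays at 37 °C stood far above the til1-1 arrays at 37 °C.

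The rise of the group means was 6.0-fold in Col-0 and 1.79-fold in til1-1, a ratio of 3.34. On the log2 scale the responses were 2.58 and 0.84, and their difference was -1.75 (SE 0.127, 95% confidence interval -2.02 to -1.47, adjusted p = 0.000204 by limma with Benjamini-Hochberg adjustment, n = 2 arrays per group). Over the 4 ways to pair the arrays of a genotype, the response was between 2.41 and 2.76 in Col-0 and between 0.75 and 0.93 in til1-1, with no overlap. Against Col-0, the til1-1 arrays differed by -0.15 at 22 °C and by -1.90 at 37 °C.

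**Figure D1:**
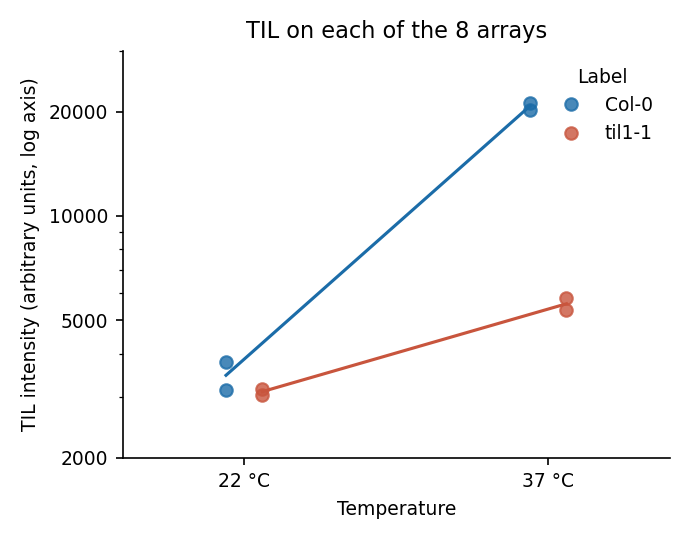
Intensity of TIL (arbitrary units, log axis) on each of the 8 arrays against temperature, with lines that join the means of 2 arrays for Col-0 and for til1-1. At 22 °C the 4 points lie between 3048 and 3795, and at 37 °C the Col-0 points lie at or above 20289.7 and the til1-1 points at or below 5804.

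The level of TIL at 22 °C did not separate the labels, and til1-1 kept a signal of at least 3048 at each temperature, so "til1-1" stands here for the samples labelled so. The sources used here do not say where the lesion of the line lies relative to the probe set.

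TIL was the only probe set that passed. Of the 17059 tested, after the 25% with the lowest mean were left out, 1 had a heat response that differed between the genotypes at an adjusted p under 0.05, which is 0.00586%. It was lower in til1-1, and 0 were higher. The next smallest adjusted p-values were 0.267 and 0.273. Without adjustment, 1156 probe sets (6.78%) had a p under 0.05, with 572 lower (3.35%) and 584 higher (3.42%) in til1-1. The single call depends on how the spread is modelled: with no intensity trend in the variance the adjusted p of TIL was 0.106, and the 1 probe set that passed was instead that of AT5G59700, a receptor-like kinase gene (247686_at, difference -1.90, looked up after the count was seen). Its intensity was 32.9 and 28.9 in Col-0 at 22 °C and 43.4 and 41.9 at 37 °C. In til1-1 it was 75.1 and 73.2 at 22 °C and, at 37 °C, 14.0 and 14.4, so it is a dim probe set with very close replicates.

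The rises and falls in heat were then sorted by whether they were weaker or stronger in til1-1. The mean response of both genotypes was higher at 37 °C for 2818 probe sets (16.5%) and lower for 6969 (40.9%), at an adjusted p under 0.05. Both counts rest on the deposited scaling, under which array medians were 197.6 to 204.1 at 22 °C and 154.8 to 160.3 at 37 °C. Rises and falls were not counted under other scalings, and the part of the scaling in the excess of falls was not tested. A response is called weaker where the difference opposes the mean response and stronger where it has the same sign. The class goes by the mean of both genotypes, so within it the genotypes can have moved in opposite directions. PIA1, with responses of 0.49 in Col-0 and -0.07 in til1-1, is such a case among the weaker rises. Rises were weaker in til1-1 for 1319 probe sets by sign alone, of which 1 passed, TIL, and 96 (7.28%) had an unadjusted p under 0.05. They were stronger for 1499, of which 0 passed and 155 (10.3%) had an unadjusted p under 0.05. Falls were weaker for 3606, of which 0 passed and 261 (7.24%) had an unadjusted p under 0.05, and stronger for 3363, with 0 and 272 (8.09%). The 7272 probe sets with no called mean response held 0 that passed and 372 (5.12%) at an unadjusted p under 0.05. In all of these classes the unadjusted share lay between 5.12% and 10.3%, around the 6.78% of all tested probe sets.

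**Figure D2:**
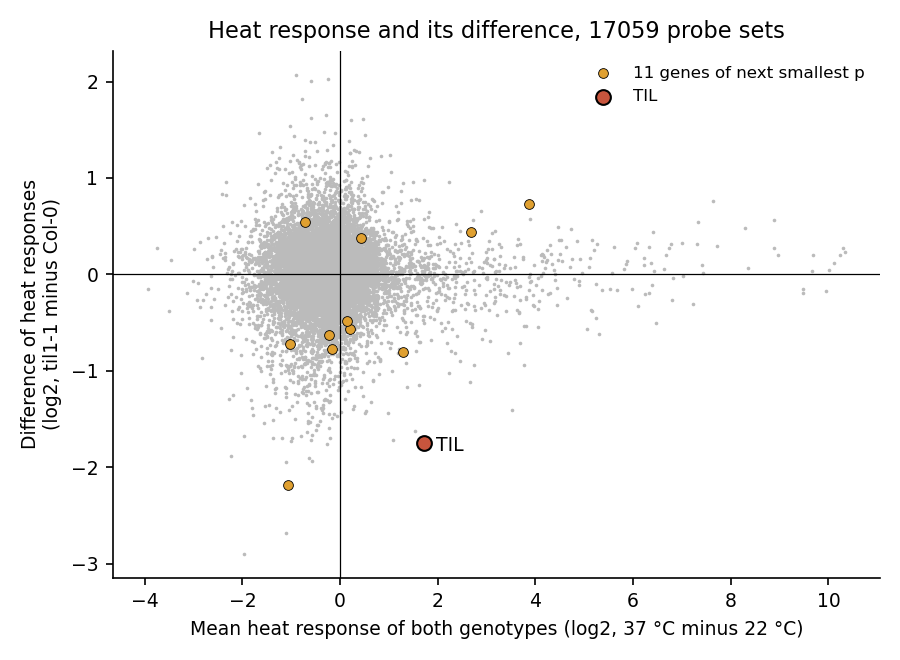
Difference of the heat responses (log2, til1-1 minus Col-0) against the mean heat response of both genotypes (log2) for the 17059 tested probe sets, with TIL and the 11 genes of next smallest p marked. TIL lies at a mean response of 1.71 and a difference of -1.75, and the 6 points past -2 or 2 on the vertical axis have mean responses below 0.

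The precision of the difference varied with brightness. The unadjusted 95% confidence interval of the difference reached a median of 0.454 to either side (quartiles 0.339 and 0.674), from 0.907 in the dimmest of 4 equal parts of the tested probe sets to 0.285 in the brightest. It lay wholly inside -1 to 1 for 13197 probe sets (77.4%). The middle of the distribution was narrow, with a median difference of 0.01, quartiles of -0.16 and 0.17, and 8288 probe sets (48.6%) below 0. Among the 2081 probe sets whose called mean response was at least 2-fold, 667 higher and 1414 lower, the interval lay inside -1 to 1 for 1447 (69.5%). Of the same 2081, 1 had responses of opposite sign in the genotypes, that of AT3G56270, described below.

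Few differences were large. The difference was -1 or lower for 169 probe sets and 1 or higher for 85, and it passed -2 for 3 and 2 for 3. The 3 lowest were the unnamed 251625_at (-2.90) and 265837_at (-2.68) and AT3G56270 (-2.18). The 3 highest were the unnamed 257011_at (2.07) and 264684_at (2.00) and AT4G02360 (2.03). None of these 6 passed. All 6 were dim, with a mean between 5.71 and 6.57 on the log2 scale. Replicates were far apart in some, such as 251625_at with 116.3 and 450.8 in til1-1 at 22 °C, but not in 264684_at.

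Calls made within each genotype are no test of the difference between them. With the deposited scaling, heat raised 2118 probe sets (12.4%) and lowered 5343 (31.3%) in Col-0, and raised 2174 (12.7%) and lowered 5389 (31.6%) in til1-1. Of these, 1576 were called only in Col-0 and 1678 only in til1-1. The difference passed in 0 of the 1576 and 0 of the 1678, and its median absolute size was 0.269 and 0.281 in them against 0.135 in the 5885 called in both. Of the 5885, 2 had opposite signs, the unnamed 259911_at and 251976_at, which were singled out after their values were seen. For 259911_at the intensity was 748 and 709 in Col-0 at 22 °C and 959 and 948 at 37 °C, and it was 963 and 966 in til1-1 at 22 °C and 696 and 718 at 37 °C. The 2 labels thus moved in opposite directions without overlap, and the difference of -0.82 did not pass.

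The 11 other genes with the smallest p are given as values, since none of them passed (adjusted p = 0.552 for rpl36 and 0.600 for the others, limma). They were taken in order of p over all tested probe sets paired with 1 gene. In 7 of the 11 the difference was below 0 and in 4 above 0.

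**Figure D3:**
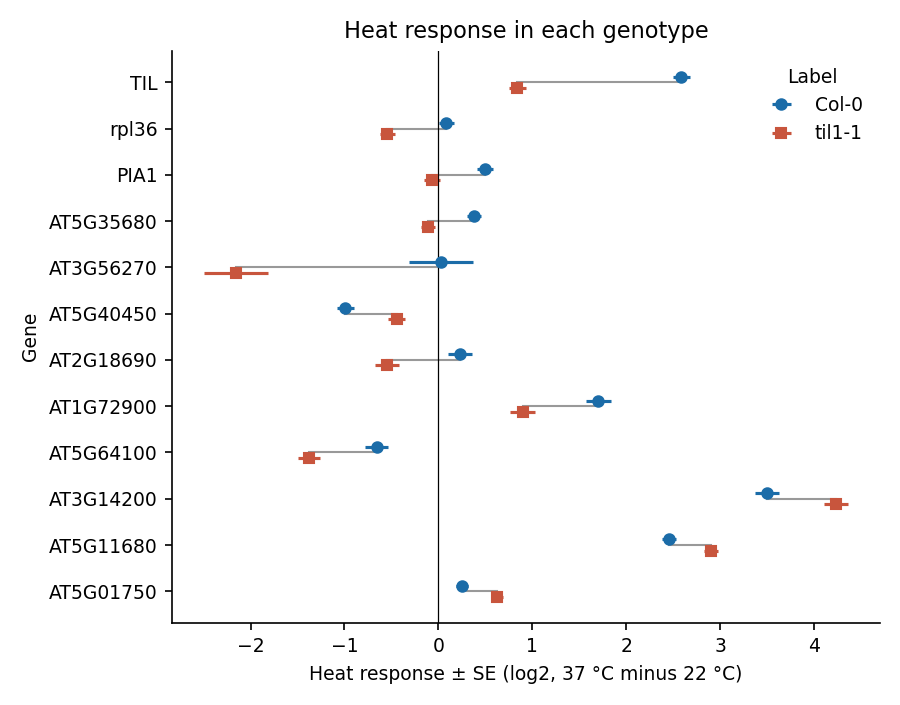
Heat response (log2, 37 °C minus 22 °C, with its standard error from limma over 2 arrays per group) in Col-0 (circles) and til1-1 (squares) for TIL and the 11 genes of next smallest p. The response of TIL was 2.58 in Col-0 and 0.84 in til1-1, and AT3G56270 has the widest gap and the widest error bars.

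Among genes that rise in heat, AT3G14200, which codes for a protein with the DnaJ domain of HSP70 co-chaperones, had a response of 3.49 in Col-0 and 4.23 in til1-1. Its intensity was 274 and 259.9 at 22 °C and, at 37 °C, 3424 and 2939 in Col-0. In til1-1 it was 196 and 148 at 22 °C and, at 37 °C, 3595 and 3364. The difference of 0.73 lay at 22 °C, where til1-1 was lower by 0.60 on the log2 scale, more than at 37 °C, where it was higher by 0.13.

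AT5G11680 had responses of 2.45 in Col-0 and 2.90 in til1-1, a difference of 0.44. Its intensity was 977 and 910.4 at 22 °C and, at 37 °C, 5338 and 5144 in Col-0, and 834 and 801 at 22 °C and 6145 and 6242 at 37 °C in til1-1. The til1-1 arrays were below those of Col-0 at 22 °C and above them at 37 °C.

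AT1G72900, a gene for a TIR-domain protein of the kind found in plant immune receptors, had a smaller response in til1-1 (0.90) than in Col-0 (1.70), a difference of -0.80. The Col-0 arrays read 247 and 245 at 22 °C and 926 and 755 at 37 °C, and the til1-1 arrays 362 and 437 at 22 °C and 809 and 702 at 37 °C. Again the genotypes were farther apart at 22 °C (0.66) than at 37 °C (-0.15).

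PIA1 (AT2G20630), a protein phosphatase of the PP2C family, had a response of 0.49 in Col-0 and -0.07 in til1-1. Its intensity was 1423 and 1321 at 22 °C and, at 37 °C, 1931 and 1939 in Col-0, and 1415 and 1404 at 22 °C and 1396 and 1289 at 37 °C in til1-1. The 2 Col-0 arrays at 37 °C stood above the other 6, as for TIL, but the difference was -0.56 (95% confidence interval -0.82 to -0.31).

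AT5G35680 had the same form, with responses of 0.38 and -0.11 and a difference of -0.49. It read 2931 and 3063 at 22 °C and 3891 and 3908 at 37 °C in Col-0, and 3231 and 3364 at 22 °C and 3186 and 2929.7 at 37 °C in til1-1. AT5G01750, a member of the LURP-one-related family, had a higher response in til1-1 (0.62) than in Col-0 (0.25), and its til1-1 arrays at 37 °C, at 8999 and 9241, stood above the other 6, which lay between 5687 and 6864.

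Among genes with a negative response, AT5G64100, a class III peroxidase of the cell wall, had responses of -0.65 in Col-0 and -1.38 in til1-1. The intensity was 3206 and 3039 at 22 °C and, at 37 °C, 1713 and 2280.1 in Col-0, and 3557 and 3014 at 22 °C and 1258 and 1242 at 37 °C in til1-1. The genotypes overlapped at 22 °C and not at 37 °C. Close relatives of this gene lie next to it in the genome, and probes may not tell them apart, so its values are uncertain.

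AT5G40450 had the reverse pattern, with responses of -0.99 in Col-0 and -0.45 in til1-1, a difference of 0.54. It read 2238 and 2357 at 22 °C and 1172 and 1126 at 37 °C in Col-0, and 1857 and 1992 at 22 °C and 1493 and 1328 at 37 °C in til1-1. AT2G18690 had responses of 0.23 and -0.55, and the gap was at 22 °C, where the til1-1 arrays read 822 and 974 and the Col-0 arrays 571 and 517.

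AT3G56270 had responses of 0.03 and -2.15 and the largest difference of the 12 named genes, -2.18 (95% confidence interval -3.23 to -1.14). Its intensity was 48.7 and 47.5 at 22 °C and, at 37 °C, 54.1 and 45.2 in Col-0, and 74.9 and 72.2 at 22 °C and 1.5 and 7.2 at 37 °C in til1-1. The til1-1 arrays at 37 °C fell below the added constant of 16, so the size of the difference rests on the added constant. It was -4.08 with a constant of 1 and -1.03 with 64, the latter closer to 0 than that of TIL.

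Of the probe sets with no gene in the annotation used here, the unnamed 264684_at was called higher in til1-1 at 37 °C. It read 96.8 and 119.7 at 22 °C and 25.5 and 24.6 at 37 °C in Col-0, and 97.7 and 91.0 at 22 °C and 125.8 and 135.6 at 37 °C in til1-1. The Col-0 arrays at 37 °C were the only low ones, and the difference of 2.00 had an adjusted p of 0.273. At 37 °C alone it and TIL were the only probe sets called between the genotypes, 1 higher and 1 lower in til1-1 (0.00586% each).

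Gene groups are described next by their counts and median difference, beside a median of 0.01 and unadjusted shares of 3.35% lower and 3.42% higher over all tested probe sets. Other than TIL, 0 members of any list passed, so the members named are those with an unadjusted p under 0.05 or with a role that helps to read the list.

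Small heat shock proteins, which hold unfolding proteins until they can be refolded, had very large responses in both genotypes. All 8 tested members were called higher in each, with a median response of 7.74 in Col-0 and 8.07 in til1-1. The median difference was 0.21, between -0.18 and 0.54, with 2 members higher and 0 lower at an unadjusted p under 0.05.

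AT2G29500 was 1 of these 2. Its intensity was 83.1 and 97.4 at 22 °C and, at 37 °C, 28409 and 28127 in Col-0, and 78.5 and 60.4 at 22 °C and 32439 and 30990.2 at 37 °C in til1-1. The til1-1 arrays were lower at 22 °C and higher at 37 °C, and the difference was 0.49 (95% confidence interval 0.16 to 0.81). AT1G54050, the other, had a difference of 0.54 and read 20637 and 19860.1 in Col-0 and 22220.1 and 22959 in til1-1 at 37 °C. At 22 °C its til1-1 arrays read 78.4 and 129.3 and its Col-0 arrays 152.5 and 122.6, so the genotypes overlapped there. With quantile scaling of the arrays, 0 of the 8 members had an unadjusted p under 0.05 and the median was 0.13. The median was 0.31 without Col-0 22 °C replicate 1, and without Col-0 22 °C replicate 2 there were 3 higher and 1 lower.

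The list of HSP70, HSP90, HSP100 and co-chaperones, the machinery that refolds proteins, had 11 tested members, 8 of them called higher in both genotypes. The median response was 5.78 in Col-0 and 5.83 in til1-1, and the median difference was 0.08, between -0.31 and 0.32. The median was 0.01 without Col-0 22 °C replicate 2 and 0.14 with scaling to spiked controls. The interval of the difference lay inside -1 to 1 for 11 of 11. ROF2 (AT5G48570), a peptidyl-prolyl isomerase that binds HSP90, was the only member with an unadjusted p under 0.05. It read 245 and 244 at 22 °C and 25656 and 25199 at 37 °C in Col-0, and 188 and 200.2 at 22 °C and 25896 and 25233 at 37 °C in til1-1. Its levels at 37 °C overlapped, and the difference of 0.32 lay at 22 °C. HSA32, a heat-induced protein needed to keep acquired heat tolerance, had responses of 5.78 and 5.83, and its 37 °C arrays lay between 5209 and 5686.

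The unfolded protein response, which answers misfolded proteins in the endoplasmic reticulum, was tested by 7 genes. Their median difference was -0.04, with 1 lower and 0 higher. The factors bZIP28 and bZIP60, which drive this response, had differences of -0.06 and 0.14, with heat responses of 1.66 and 0.43 in Col-0 and 1.60 and 0.57 in til1-1. PDIL5-1, a protein of the disulfide isomerase family, was the 1 lower member (-0.41).

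The list of oxidative stress markers, in practice mostly glutathione transferases of the tau class (GSTU), NDB alternative NADH dehydrogenases and the zinc finger factor STZ, had a median difference of -0.20 over 13 genes. Of these, 11 were below 0. At an unadjusted p under 0.05, 2 were lower, GSTU22 (-0.48) and NDB1 (-0.38), and 1 was higher, GSTU18 (0.40). These became 0 and 0 without Col-0 22 °C replicate 2. The median was -0.35 without Col-0 37 °C replicate 2, -0.31 without replicate 1 of til1-1 at either temperature, -0.13 without til1-1 37 °C replicate 2 and -0.11 with the dimmest 50% left out. GSTU22 read 428 and 390.1 at 22 °C and 339 and 309.5 at 37 °C in Col-0, and 491 and 545.5 at 22 °C and 300.1 and 283 at 37 °C in til1-1. STZ had the lowest value of the list, -1.12, but its interval ran from -2.42 to 0.18. Its replicates were far apart at 22 °C, at 546.5 and 199 in Col-0 and 1046 and 393 in til1-1, and its heat responses were 3.22 and 2.11. The 4 scavenging enzymes tested, such as the ascorbate peroxidases TAPX and SAPX, had a median difference of 0.04, with 0 lower and 0 higher.

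Calmodulin-like proteins (CML), sensors that bind calcium, had the lowest median difference of the lists with at least 4 tested members, -0.55 over 7 genes. Of these, 2 were lower at an unadjusted p under 0.05 and 0 higher. CML41 read 55.5 and 85.6 at 22 °C and 60.1 and 64 at 37 °C in Col-0, and 72.1 and 109.6 at 22 °C and 4.8 and 14.2 at 37 °C in til1-1. Its 37 °C arrays in til1-1 were below all others, and its difference was -1.94 (95% confidence interval -2.99 to -0.90). CML43, the other, had a difference of -0.90, with 98.5 and 110.7 at 37 °C in Col-0 and 60.3 and 81.3 in til1-1. Over the 7 genes, the median of til1-1 against Col-0 was 0.33 at 22 °C, with 2 of 7 below 0. At 37 °C this median was -0.17, with 6 of 7 below 0, so the genotypes were farther apart at 22 °C.

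The members of the CML list with a positive heat response in both genotypes were CML37, with responses of 4.04 in Col-0 and 3.33 in til1-1, CML23, with 2.43 and 1.87, and CML38, with 2.83 and 2.66. None of these 3 differences had an unadjusted p under 0.05. With the dimmest 50% of probe sets left out in place of 25%, the median difference was -0.11, with 0 lower. It was -0.44 with an added constant of 64, -0.30 without til1-1 37 °C replicate 1 and -0.34 without til1-1 22 °C replicate 1.

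Genes of photosynthesis had differences mostly above 0. Of 11 nuclear genes, 5 were higher at an unadjusted p under 0.05 and 0 lower, with a median difference of 0.23. The median response was 0.21 in Col-0 and 0.45 in til1-1. PSAE-1, a subunit of photosystem I, read 16045 and 18015 at 22 °C and 22909 and 22529 at 37 °C in Col-0, and 15038 and 16462 at 22 °C and 27018 and 27099.8 at 37 °C in til1-1. The genotypes overlapped at 22 °C, the til1-1 arrays were higher at 37 °C, and the difference was 0.36 (95% confidence interval 0.14 to 0.59). PSBY, a small protein of photosystem II, also had 0.36, and the others were RCA, the activase of Rubisco (0.25), PSAN of photosystem I (0.25) and LHCB4.1, a light-harvesting protein (0.23).

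The genes of the plastid genome, which codes for parts of the photosystems, the ATP synthase and the plastid's own ribosome, also had a median difference above 0. Of its 69 tested genes, 20 were higher and 1 was lower at an unadjusted p under 0.05, and 52 had a difference above 0. The median difference was 0.17, from responses of 0.38 in Col-0 and 0.55 in til1-1. Members with roles in the light reactions included psaB of photosystem I (0.33), petB of the cytochrome b6f complex (0.37) and atpB of the ATP synthase (0.28).

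For petB the intensity was 16141 and 17058.6 at 22 °C and, at 37 °C, 22695 and 21984 in Col-0, and 13892 and 16218 at 22 °C and 26576 and 25555 at 37 °C in til1-1. The til1-1 arrays lay higher at 37 °C, and the genotypes overlapped at 22 °C. The highest difference was that of petG (0.86), whose replicates in Col-0 were wide apart, at 1299.6 and 2497 at 37 °C. The 1 lower member was rpl36, a protein of the plastid ribosome, with responses of 0.08 in Col-0 and -0.54 in til1-1 and a difference of -0.63. It read 5304 and 5185 at 22 °C and 5502 and 5599 at 37 °C in Col-0, and 5762 and 6721 at 22 °C and 4370 and 4159 at 37 °C in til1-1.

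These counts did not hold across settings. The 20 higher plastid genes became 5 with quantile scaling, 2 with no intensity trend, 7 without Col-0 22 °C replicate 2, 9 without til1-1 37 °C replicate 2 and 29 without til1-1 22 °C replicate 2. Without til1-1 22 °C replicate 1 there were 6 higher and 6 lower and the median was 0.04. The 5 higher nuclear photosynthesis genes became 1 with quantile scaling, and 2 with spiked controls as the scale, with no filter on dim probe sets, with no intensity trend, without Col-0 22 °C replicate 2 or without til1-1 37 °C replicate 2. The brightest probe sets of the til1-1 arrays at 37 °C were brighter as a whole: the 99th percentile of intensity was 11721 and 11884 there and 11093 and 11356 in Col-0 at 37 °C. The part of this in the photosynthesis, plastid and small heat shock protein values was not tested.

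Mitochondrially encoded genes rose far more in heat and did so in both genotypes, in 15 of 15, with median responses of 2.88 in Col-0 and 3.0 in til1-1. Their median difference was 0.05, with 0 lower and 0 higher. Its sign was not stable: it was -0.09 without Col-0 22 °C replicate 2, -0.04 without til1-1 37 °C replicate 1 and 0.12 without Col-0 22 °C replicate 1. Without til1-1 22 °C replicate 2, 2 members were higher. For nad6, a subunit of complex I, the responses were 6.58 and 6.78.

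Whole seedlings mix organs, and in such bulk samples fewer cells of a type and less RNA per cell cannot be told apart. All 3 shoot markers tested, LHCB4.1, PSAE-1 and RCA, which are also among the nuclear photosynthesis genes, were higher at an unadjusted p under 0.05, with a median difference of 0.25. With quantile scaling this became 0 of 3 and a median of 0.06. It was 1 of 3 with spiked controls as the scale, with no filter, with no intensity trend, without Col-0 22 °C replicate 2 or without til1-1 37 °C replicate 2. The 3 root markers had differences below 0, with a median of -0.42 and 0 of 3 at an unadjusted p under 0.05. Lower at that p were 2 of 3 with quantile scaling, without Col-0 37 °C replicate 1 or without til1-1 37 °C replicate 2, and 1 of 3 with array medians set equal, with an added constant of 1 or with no intensity trend. The median was -0.23 without til1-1 37 °C replicate 1 and -0.28 with an added constant of 64.

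EXPA7, an expansin of root hair cells, had -0.52, EXPA18, another of them, had -0.42, and PYK10, a beta-glucosidase of roots, had -0.17. EXPA18 read 378 and 371 at 22 °C and 147.5 and 164 at 37 °C in Col-0, and 309 and 312 at 22 °C and 86.7 and 94.8 at 37 °C in til1-1. The til1-1 arrays were lower at both temperatures. The part of the organ markers in the values of the photosynthesis and plastid genes was not tested.

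The lists of the cell wall and of the cell cycle and histones had median differences below 0. In both lists, though, the members with an unadjusted p under 0.05 were all higher. Of 39 genes of cell wall loosening and remodelling, heat lowered 21 in both genotypes. Their median response was -0.83 in Col-0 and -0.93 in til1-1 and the median difference was -0.05, with 3 higher and 0 lower. Of the 39, 22 had a difference below 0, beside 48.6% of all tested probe sets. The 9 genes of the cell cycle and histones had a median difference of -0.16, with 7 of 9 below 0, and the histone H2B gene HTB2 was the only one with an unadjusted p under 0.05 (0.68). HTB2 read 596 and 607 at 22 °C and 210.5 and 157 at 37 °C in Col-0, and 494 and 535 at 22 °C and 275 and 239.7 at 37 °C in til1-1. Its til1-1 arrays were lower at 22 °C and higher at 37 °C.

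Of the 5 class III peroxidases in the list, 2 were lower at an unadjusted p under 0.05, AT5G64120 (-0.86) and Prx37 (-0.41). The peroxidase AT5G64100 described above is not in this list, so the count does not cover it. AT5G64120 read 293 and 465 in Col-0 and 131 and 194 in til1-1 at 37 °C, and 2034 and 1981 in Col-0 and 1578 and 1752 in til1-1 at 22 °C. The til1-1 arrays were lower at both temperatures, and by more at 37 °C. RR16, a response regulator of cytokinin signalling and the only tested member of its hormone list, had a difference of -0.75.

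Autophagy genes, mostly of the ATG8 family that coats autophagosomes, had a median difference of -0.11, with 9 of 11 below 0 and 1 lower (APG8A, -0.29). The median was -0.20 without til1-1 37 °C replicate 2 and -0.18 without til1-1 22 °C replicate 1, and it was -0.04 with scaling to spiked controls. The count of 1 became 3 without til1-1 22 °C replicate 1 and 0 with each of 5 other arrays left out in turn, all but Col-0 22 °C replicate 2 and Col-0 37 °C replicate 1. For APG8A the intensity was 1134 and 1265 at 22 °C and, at 37 °C, 1952 and 1969 in Col-0, and 1299 and 1429 at 22 °C and 1807 and 1833 at 37 °C in til1-1. The til1-1 arrays of APG8A were higher at 22 °C and lower at 37 °C, which most of the list did not share. Over the 11 genes, the median of til1-1 against Col-0 was 0.14 at 22 °C, with 0 of 11 below 0. At 37 °C this median was 0.02, with 3 of 11 below 0.

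Other lists held few members past an unadjusted p under 0.05. The 21 ubiquitin genes had a median difference of -0.01, with 1 higher and 0 lower, and the 14 genes of BGLU beta-glucosidases and BCAT4 had 0.05, with 1 lower and 1 higher. The 13 cytochromes P450 (-0.10), 10 auxin response genes (-0.05), 6 WRKY factors (-0.07), 4 genes of abscisic acid, dehydration and cold (-0.09) and 4 jasmonate genes (-0.27) had 0 lower and 0 higher. The 11 reference genes, of the kind used to normalise expression, had a median of 0.10, with 10 of 11 above 0 and 0 lower and 0 higher. CHL, the plastid lipocalin that is the other lipocalin tested, had a difference of 0.18 (95% confidence interval -0.05 to 0.41). Its 8 arrays lay between 3582 and 4234.

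**Figure D4:**
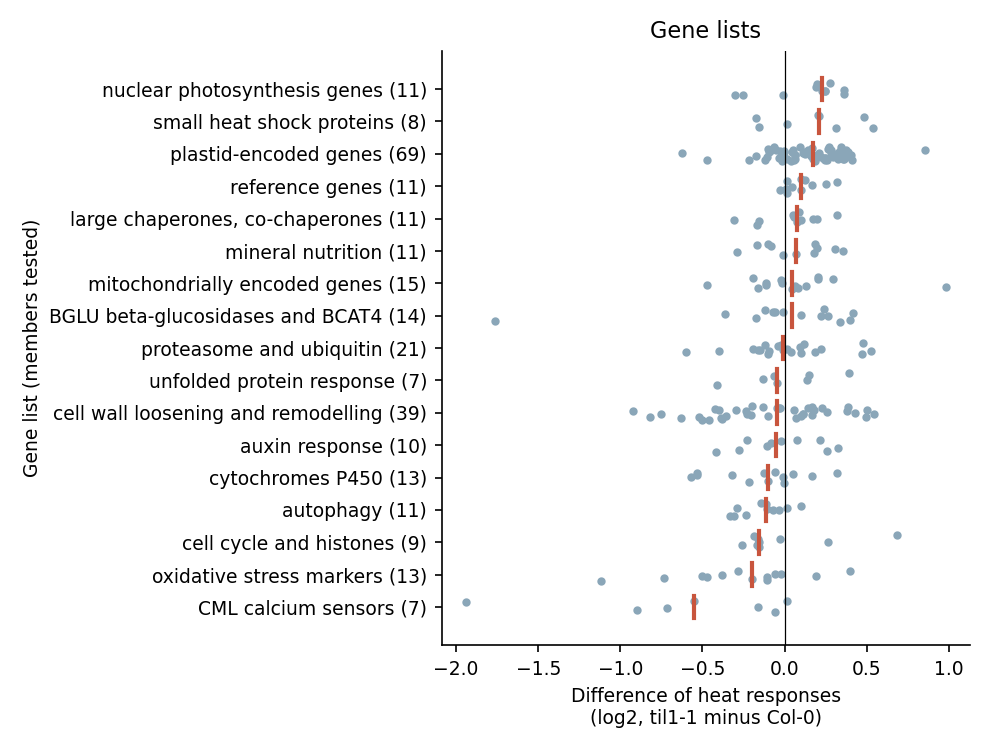
Difference of the heat responses (log2, til1-1 minus Col-0) for the members of each list with at least 7 tested genes. Points are genes and bars are medians, which run from -0.55 for the CML genes to 0.23 for the nuclear photosynthesis genes.

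The difference did not grow with the size of the heat response. As deposited, the median difference was 0.10 for the 107 probe sets with a mean response of 4 or more and -0.06 for the 196 with a response between 2 and 4. For responses under -2 (93 probe sets) it was -0.01. The first of these values depended on the scaling of the arrays: it was 0.08 with array medians set equal, 0.01 with quantile scaling and 0.18 with scaling to spiked controls, a scaling that moved the median of all tested probe sets to 0.07.

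**Figure D5:**
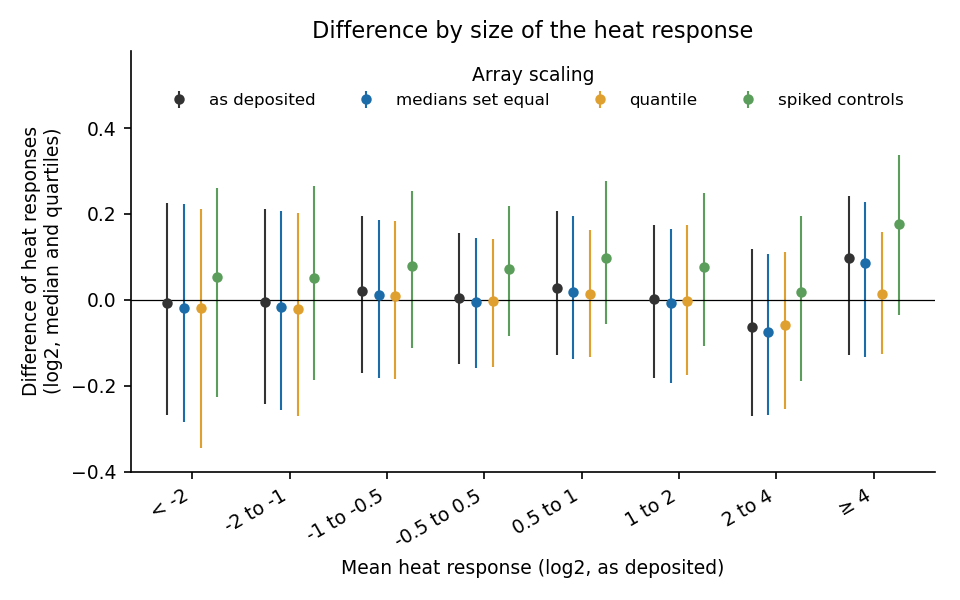
Median difference of the heat responses (log2, points) and its quartiles (lines) in 8 bins of the mean heat response, under 4 scalings of the arrays. The deposited medians lie between -0.06 and 0.10, and scaling to spiked controls shifts every bin upwards.

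Array medians were 197.6 to 204.1 at 22 °C and 154.8 to 160.3 at 37 °C. The ratio of 3' to 5' signal of an actin control, which is higher in degraded RNA, was 10.4 and 10.7 in Col-0 and 10.2 and 12.1 in til1-1 at 22 °C. At 37 °C it was 17.7 and 14.7 in Col-0 and 12.7 and 12.5 in til1-1, so it was higher in Col-0 there. The ubiquitin control went the other way at 37 °C, with 2.09 and 2.09 in Col-0 and 2.27 and 2.37 in til1-1, and so did the GAPDH control, with 1.84 and 1.55 against 1.88 and 1.93. A second actin control gave 2.16 and 1.86 against 2.13 and 2.04, which overlap. Second controls of ubiquitin (1.06 and 1.12 against 0.89 and 1.09) and GAPDH (0.96 and 1.04 against 1.00 and 1.04) overlapped too. A ribosomal RNA control lay between 269.8 and 410.4 at 22 °C. At 37 °C it was 1828.4 and 3966.8 in Col-0 and 2398.8 and 3625.1 in til1-1. The part of these ratios and of the ribosomal RNA control in the differences was not tested.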

How the data were processed

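RNA was hybridised to Affymetrix arrays, 1 per sample. The deposited table holds linear intensity values made by the authors with Affymetrix's GCOS software, per the submitters' processing notes; the sources used here give neither version nor settings. Every array had a trimmed mean near 500.04 (2% left out at each end). There is no read depth here, and the number of arrays sets the precision.

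Names came from the platform annotation and, by gene ID, a TAIR10.1 gene table. Of 22810 probe sets, 13513 had 1 gene (13436 matched), 503 had several, 8730 were not listed and 64 were controls. Intensities were taken as log2(intensity + 16), controls and the dimmest 25% were left out, and 4 group means were fitted with limma 3.58.1 in R 4.3.3 (empirical Bayes with an intensity trend, 4 residual degrees of freedom, two-sided, Benjamini-Hochberg over 17059 probe sets, threshold 0.05). The fit was tested on simulated data.

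Named genes were those that passed, filled up to 12 by smallest p. The members, gene lists and tests were chosen with earlier results of these data known. Lists were described by counts and medians, using the brightest probe set of a gene. Lists of heat shock factors, ethylene response factors, aquaporins and seed reserve markers had no tested probe set paired with 1 gene in the annotation used here. These families were therefore not assessed, which does not mean that the array lacks them. Lists with 1 tested member are not described except RR16. Alternatives were other added constants, filters, scalings, variance models, a replicate block and leaving out each array.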

Additional observations from a re-analysis of the deposited data

Results flagged for a closer look

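The rise of TIL differed between the genotypes by a test of the difference itself: the difference of the heat responses was -1.75 on the log2 scale (adjusted p = 0.000204, limma), with the gap at 37 °C (-1.90) and not at 22 °C (-0.15).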

How the results depend on the processing

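TIL kept a negative difference in all 18 alternatives, between -1.88 and -1.56, and passed in 17. With no intensity trend in limma its adjusted p was 0.106, so the number of weaker rises went from 1 to 0. The number of stronger falls went from 0 to 1 (AT5G59700). That gene is a fall by the mean of both genotypes only: its Col-0 arrays were higher at 37 °C than at 22 °C. When each array was left out in turn, the number of differing responses ranged from 1 to 2 and that of stronger falls from 0 to 1; without til1-1 37 °C replicate 1 it was 2 (AT3G25290 was added) and without til1-1 37 °C replicate 2 it was 2 (AT3G06840 was added). The number of weaker rises stayed at 1, and those of stronger rises and weaker falls at 0, in these leave-outs. The 11 other named genes gave 197 values over 18 alternatives, of which 0 changed direction. These genes were chosen by smallest p in the same data, so a kept direction was likely in advance and is no separate support. The number of probe sets with an unadjusted p under 0.05 went from 1156 to 626 without Col-0 22 °C replicate 2.

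The labels number the replicates 1 and 2 in every group, and do not say whether arrays of the same number were handled together. Deviations from the group means correlated between -0.04 and 0.14 over the 6 pairs of groups. These correlations run over all tested probe sets at once, so they cannot show whether some probe sets shared a batch. A ribosomal RNA control was higher in replicate 2 than in replicate 1 of every group. With the replicate number as a block, 1 probe set passed, as without it, and 1311 had an unadjusted p under 0.05. The robust variance model was chosen after seeing the data.

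With 2 arrays per group, differences within 0.454 of 0 were inside the unadjusted interval of a typical probe set, and within 0.907 in the dimmest of 4 equal parts. A difference beyond these limits need not pass after adjustment: that of 259911_at was -0.82, with an adjusted p of 0.267 (limma).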
